A study of Canis lupus familiaris with 51 samples.

Results

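Kinesins are motor proteins that hydrolyze ATP to move along microtubules. The mitotic kinesins build and position the spindle, move chromosomes and complete cytokinesis, and many of them are made mainly in dividing cells. The transport kinesins carry vesicles, mitochondria and other organelles through the cytoplasm of dividing and resting cells alike, and the kinesin light chains attach cargo to the KIF5 heavy chains. A mast cell moves its secretory granules along microtubules before it degranulates, a task of transport motors.

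The kinesin genes were followed in canine cutaneous mast cell tumor (MCT), a spontaneous skin tumor of dogs. They were taken as all array probes whose gene name begins with KIF, KIFC or KLC and a number. This gave 55 probes for 32 genes out of 43603 probes, namely 11 mitotic kinesins, 11 transport kinesins, 4 light chains and 6 kinesins of cilia or other roles. RNA of 51 tumors, each from the centre of a tumor mass and taken at surgery, was hybridized individually to one-color canine arrays, 1 array per tumor. The dogs were 30 females and 19 males, with sex not given for 2, and included 9 Boxers, 9 Labrador Retrievers and 14 crossbreds aged, as far as stated for 49 of the 51, from 3 to 14 years. No cell sort preceded the extraction and no normal skin was hybridized, so each value is that of a whole tumor piece. The sample labels carry no histological class, and no contrast between differentiated and undifferentiated MCTs was made.

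Levels are log2 of the background-subtracted signal after quantile normalization of the 51 arrays, and each gene is represented by its brightest probe. Between 59.4% and 74.82% of spots per array were well above background, and the lowest correlation between any 2 arrays over all probes was 0.907. Of 12 mast cell genes listed, 7 were measured, and all 7 were well above background on at least 26 arrays. KIT, the stem cell factor receptor, ran from 9.11 through a median of 13.31 to 15.03. All 11 fibroblast, 8 epidermal, 9 lymphocyte and 8 macrophage genes measured passed the same limit, so detection alone does not single out mast cells. The mast cell list had a median level of 14.48, beside 12.66 for the fibroblast list and 11.54 for the epidermal list. Among markers of other cells, the 8 epidermal genes measured had a mean level from 2.72 to 15.18, the skeletal muscle list reached 11.93 in tumor LM0 against a median of 6.16, and 8 of 13 nerve and Schwann cell genes were above background on at least 26 arrays.

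The probes are 60-base oligonucleotides, and 5 of them are shown because the main contrasts turn on them. KIF15 and KIFC1 stand for the mitotic motors, KIF5B and KIF3A for the transport motors, and KLC3 is the light chain that varied most. Capitals mark the codons of the switch I stretch (in KIF3A) and of the switch II stretch (in KIF5B), the nucleotide-sensing loops of the motor domain by which kinesins are recognized.
KIF15: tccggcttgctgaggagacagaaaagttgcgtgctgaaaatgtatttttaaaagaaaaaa
KIFC1: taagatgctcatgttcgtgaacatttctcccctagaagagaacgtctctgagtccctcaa
KIF5B: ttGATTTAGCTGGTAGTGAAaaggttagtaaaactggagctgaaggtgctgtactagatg
KIF3A: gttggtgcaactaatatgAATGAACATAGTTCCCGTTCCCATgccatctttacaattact
KLC3: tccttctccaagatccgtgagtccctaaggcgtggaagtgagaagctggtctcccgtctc

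According to the scanner output, which does not name its genome build, these probes map to chr20:46455266-46455653 (minus strand), chr12:5821188-5821391 (plus), chr2:17742824-17743986 (plus), chr11:24019822-24019881 (minus) and chr1:113082232-113082291 (minus), in the order given. The first 3 intervals are longer than the 60 bases of the probe, so these probes span an intron. Read in all 3 frames of the probe strand, the switch I codons occurred in 1 of 43603 probes (0.00229%), which is the KIF3A probe. The switch II codons occurred in 3 of 43603 (0.00688%), of which 2 were kinesin probes, the one of KIF5B and one of KIF2A. On the opposite strand no kinesin probe held either stretch.

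As a list the mitotic kinesins had the highest median spread between tumors, although single genes of other lists were wider than most of them. KIF11, the plus-end motor that pushes the spindle poles apart, ran from 5.26 in T12 through a median of 7.70 to 11.56 in LM0, a 78.7-fold range. It lay at least 1 log2 unit above its median in 16 tumors and as far below it in 9, with LM0, T9, T90, T114 and T57 at the top. KIF15, which backs up KIF11 in holding the spindle open, ran from 6.01 through 7.90 to 10.65 (25.04-fold). KIFC1, a minus-end motor that focuses spindle poles, ran from 6.36 through 7.65 to 10.89 (23.1-fold). LM0 was the highest tumor for these 3 genes and also for KIF4A, KIF2C and KIF22.

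KIF4A, a chromosome-arm motor, had values of 3.41, 6.02 and 8.43 (lowest, median and highest) and was well above background on 49 of 51 arrays. KIF18A, which damps chromosome movement at the metaphase plate, had 7.42, 8.42 and 10.32. KIF2C, a microtubule depolymerase of the centromere, had 5.64, 6.73 and 8.63. These 3 genes again had their high values among a few tumors, with 8, 5 and 5 tumors at least 1 log2 unit above the median.

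KIF20B, a motor of late cytokinesis, had values of 8.65, 9.35 and 11.69. KIF22, which pushes chromosome arms away from the poles, had 8.60, 9.86 and 11.53. KIF23, the motor subunit of centralspindlin in the midzone, had 9.26, 10.65 and 12.59, and its highest tumor was T107, not one of the 5 with most KIF11. The KIF20A probe was well above background on 6 of 51 arrays and the KIF2B probe on none, so for most tumors only an upper limit is known for KIF20A and for all of them for KIF2B.

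The transport kinesins were steadier in several cases. KIF5B, the ubiquitous conventional kinesin heavy chain, had values of 11.32, 12.05 and 12.59, a 2.41-fold range with no tumor 1 log2 unit from the median. KIFC3, a minus-end motor of epithelial and Golgi transport, had 6.94, 7.81 and 8.42 (2.79-fold). KIF3A, a subunit of kinesin-2, had 7.33, 8.10 and 9.31 (3.96-fold). KIF5A, the neuronal heavy chain, was well above background on all 51 arrays at 6.48, 7.67 and 8.59.

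Other transport motors were wider. KIF5C, a further neuronal heavy chain, had values of 4.83, 7.02 and 10.76 with T114, T57 and T81 highest. KIF1C, a fast organelle carrier, had 11.04, 12.09 and 13.83, and 7 tumors lay at least 1 log2 unit above the median. KIF1B, which carries mitochondria and synaptic vesicle precursors, had 1.95, 6.32 and 7.44, the 5 tumors far below the median being the exceptional ones. Its probe was well above background on 49 of 51 arrays. KIF16B, an endosome motor, had 5.41, 6.72 and 8.54. KIF3B, the partner of KIF3A, had 3.75, 4.89 and 6.25, KIF3C, another kinesin-2 subunit, 3.25, 5.55 and 6.72, and KIFC2, a minus-end motor of neurons, 2.37, 5.26 and 6.40, with 44, 46 and 41 arrays well above background.

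Over the genes well above background on at least 26 arrays, the median SD between tumors was 0.734 log2 units for 9 mitotic kinesins, 0.566 for 11 transport kinesins, 0.396 for the 4 light chains and 0.656 for 5 others, beside 0.4661 for all 29918 probes that passed the same filter. All 9 mitotic kinesins and 6 of the 11 transport kinesins had an SD above 0.5, beside 13413 of the 29918 probes. Of the remaining genes, KLC1, KLC2 and KLC4 had SDs from 0.237 to 0.438, and KLC3 had the widest spread of the family (SD 3.30). Of the other kinesins, KIF2A, KIF9, KIF12, KIF26B and KIF27 were above background on 45 to 51 arrays, and KIF19 on none.

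**Figure D1:**
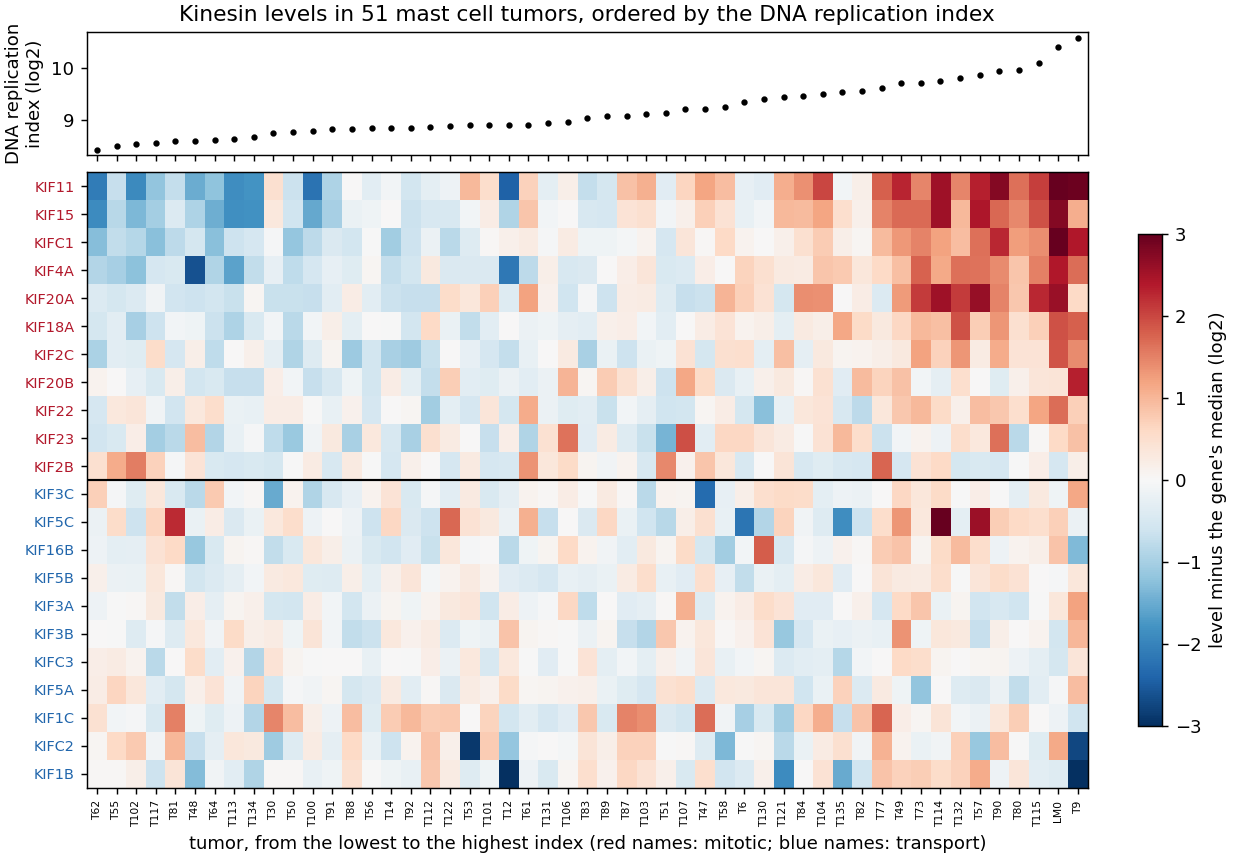
Levels of the 11 mitotic (upper block) and 11 transport kinesins (lower block) in 51 tumors, each shown as the log2 difference from the gene's median, with tumors ordered by the DNA replication index (top panel, log2). In the upper block KIF11, KIF15, KIFC1 and KIF4A turn from blue to red along the order, while KIF5B and KIFC3 stay within 1 log2 unit of their medians.

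The first contrast asked whether kinesin levels moved with the amount of DNA replication machinery in a tumor. The DNA replication index, the mean log2 level of 16 replication genes such as MCM6 and RRM2, ran from 8.42 in T62 through 9.03 to 10.59 in T9. Its values formed a continuous series whose widest gap, 0.304, set only T9 and LM0 apart. Each probe was fitted against the index by limma, with p-values adjusted by Benjamini-Hochberg over all 43603 probes and called at an adjusted p under 0.01. By this rule 7.59% of all probes were called, 4.79% with higher levels at a higher index.

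Of the 11 mitotic kinesins, 9 were called and all 9 rose with the index. None of 11 transport kinesins, 4 light chains and 6 other kinesins was called, although 1 transport gene and 3 of the other kinesins had an unadjusted p under 0.05, as did 26.3% of all probes. The median slope was 0.57 log2 per SD of the index for the mitotic list and 0.04 for the transport list, beside 0.01 for all probes.

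KIF11 had the steepest slope of the family, 1.25 ± 0.11 log2 per SD of the index (SE, limma adjusted p = 1.95e-13). KIF15 followed with 0.98 ± 0.08 (adjusted p = 1.67e-13), KIFC1 with 0.90 ± 0.05 (adjusted p = 1.3e-18) and KIF4A with 0.87 ± 0.07 (adjusted p = 2.87e-14). KIF18A and KIF2C had slopes of 0.57 ± 0.05 and 0.49 ± 0.07. The slopes of KIF20B and KIF22 were lower, 0.29 ± 0.07 and 0.28 ± 0.07, with adjusted p of 0.00305 and 0.00585. KIF20A was called too (0.73 ± 0.10), but on a probe above background in 6 tumors. KIF23 missed the threshold at 0.27 ± 0.10 (adjusted p = 0.0494), and KIF2B, not detected on any array, had −0.10 ± 0.08.

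Without T9 and LM0, the tumors farthest from the median of the index, KIF20B and KIF22 were no longer called, and the other 7 genes were. Neither was called within females or within males alone (adjusted p from 0.15 to 0.358). For KIF11 Pearson's r with the index was 0.856 and Spearman's rho 0.850, and without T9 and LM0 r was 0.824. Both p-values were 1e-05 by permutation, the smallest that these permutations can give. The r of KIF11 was 0.835 in females and 0.878 in males, and from 0.809 to 0.951 within the 6 scan sessions that held at least 6 tumors. KIFC1 had r = 0.921 and rho = 0.906, with 0.862 to 0.979 within sessions. KIF23 had r = 0.368 (permutation p = 0.00768), and its r within sessions ran from −0.428 to 0.773. In all, 9 pairs of a gene and an index were examined in this way, besides 7 genes within clusters of tumors, and the adjusted p-values are those of the fit over all probes.

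Among the transport motors KIF5B came nearest to the threshold, with a slope of 0.11 ± 0.04 (adjusted p = 0.0967) and a 95% interval from 0.02 to 0.20. The slopes of KIF3A, KIFC3 and KIF5A had intervals from −0.03 to 0.21, from −0.10 to 0.09 and from −0.17 to 0.07. These intervals lie below those of KIF11, KIF15, KIFC1 and KIF4A, whose lowest bound was 0.73. The mitotic genes with lower slopes were not separated in this way. The intervals of KIF20B, KIF22 and KIF23 overlapped those of KIF5B and KIF3A. KIF1B (−0.39 to 0.17) and KIF5C (−0.12 to 0.41) were less sharply bounded. A dimmer probe of KIF5B (0.16 ± 0.04, adjusted p = 0.00341) and the dimmer probe of KIF3A (0.28 ± 0.06, adjusted p = 0.00116) did pass, so for these genes the call depended on the probe. KIF2A, a depolymerase with roles in both spindle and neuron, had 0.13 ± 0.04 by its brightest probe (adjusted p = 0.016) and was called by another of its 3 probes (0.20 ± 0.04).

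**Figure D2:**
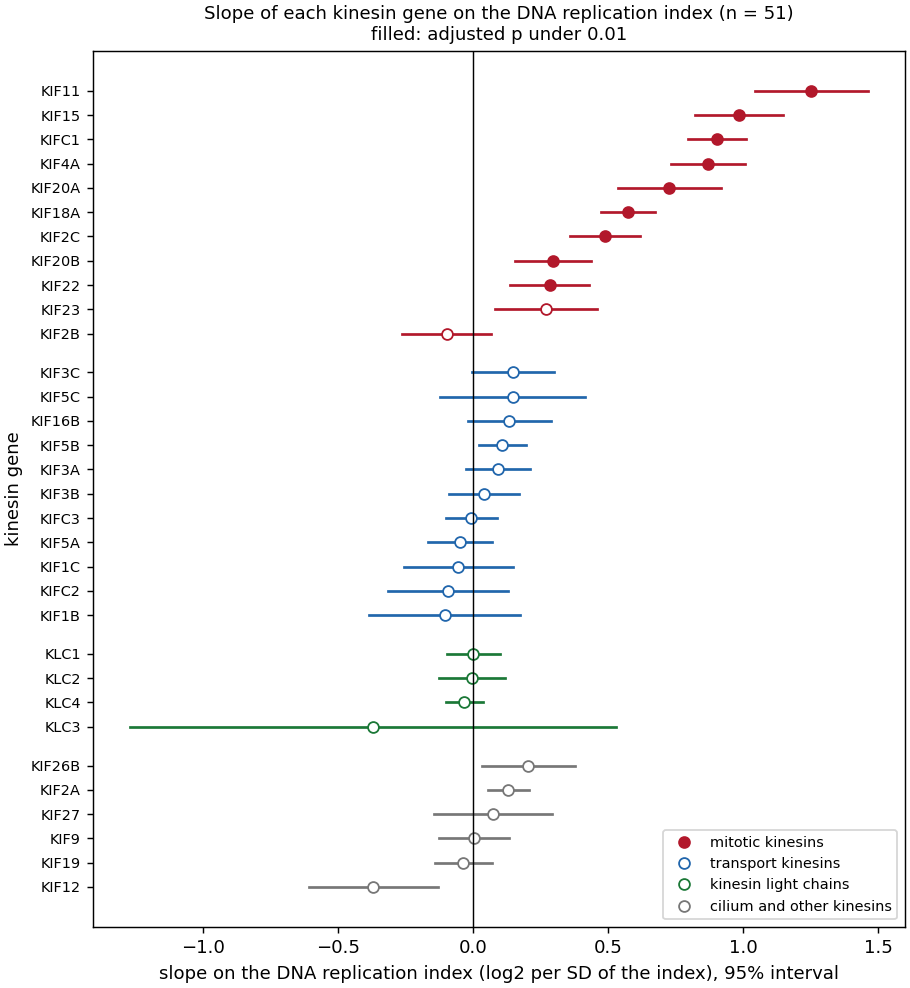
Slope of each of the 32 kinesin genes on the DNA replication index (log2 per SD of the index, n = 51 tumors), with bars for the 95% interval and filled points for an adjusted p under 0.01. The 9 filled points are all mitotic kinesins, from 1.25 for KIF11 down to 0.28 for KIF22.

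Genes that work beside the mitotic kinesins showed the same direction. Of 18 spindle and kinetochore partners measured, 16 were called and rose with the index, with a median slope of 0.70. They included NDC80, the microtubule anchor of the kinetochore (1.07 ± 0.07), TPX2, a spindle assembly factor that loads KIF15 (0.69 ± 0.07), and the kinase AURKA (0.58 ± 0.06). RACGAP1, which forms centralspindlin together with KIF23, rose by 1.14 ± 0.09. ECT2, which centralspindlin recruits to the midzone, had −0.05 ± 0.05, and the kinesin CENPE was above background on no array. In dynein and dynactin, the minus-end transport motor and its activator, 2 of 16 genes were called (DYNLL2 and DCTN6, both higher), and of 14 kinesin adaptors 1 was called (MAPK8IP1, lower). The fibroblast list had 2 of 11 genes called, both lower, and the macrophage list 2 of 8, both lower. The nerve list had 2 of 13 called, UCHL1 and TUBB3, both higher. None of the 7 mast cell, 8 epidermal, 7 endothelial and 9 lymphocyte genes was called with the replication index. None of the 10 skeletal muscle genes was called either, but all 10 slopes were positive, 6 had an unadjusted p under 0.05, the lowest adjusted p was 0.0109, and the median slope of 0.54 was close to that of the mitotic kinesins. With the mean of the muscle list as a covariate, a fit added after the data had been seen, 7 mitotic kinesins and no other kinesin were called, beside 5.48% of all probes. KIF11 then had a slope of 1.17, and KIF20B and KIF22 were no longer called. In such bulk RNA a lower number of cells and less RNA per cell cannot be told apart.

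Among themselves the mitotic kinesins moved together in many pairs, but not in all. Over 36 pairs of the 9 genes above background on at least 26 arrays the median r was 0.552. Of these pairs 19 had an r above 0.5, and the lowest r was −0.075. The closest pair was KIF11 and KIF15 (r = 0.948), which share the task of spindle pole separation. KIFC1 had r = 0.865 with KIF15 and 0.837 with KIF18A. Over 55 pairs of transport kinesins the median r was −0.03, with 2 pairs above 0.5, and over 99 pairs of a mitotic and a transport kinesin it was 0.069. The highest mixed pair was KIF11 with KIF5B (r = 0.533). All these values come from the same 51 arrays and are given as a description.

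Within the transport list the genes formed opposed pairs. KIF1C had r = 0.639 with KIF5B but −0.598 with KIF3A and −0.523 with KIF5A. KIF1B had −0.550 with KIF5A. Across lists, KIF1C had r = 0.820 with the light chain KLC3, the highest value of any pair that was not mitotic.

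**Figure D3:**
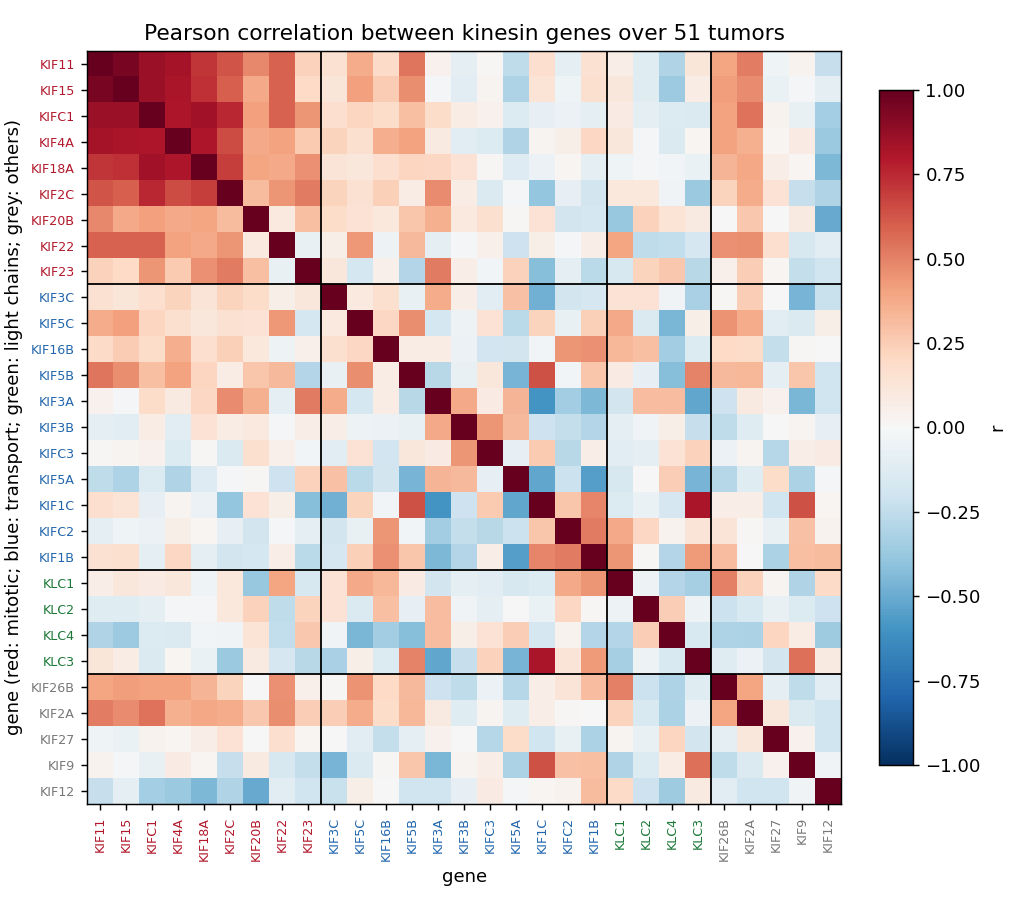
Pearson correlation over 51 tumors between the 29 kinesin genes above background on at least 26 arrays, grouped by list with black lines between the groups. The block at the upper left holds the mitotic pairs (median r = 0.552, lowest −0.075), and the transport block beside it holds both signs (median r = −0.03).

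The second contrast asked whether the kinesins moved with the mast cell content of the sample. The mast cell index, the mean of KIT, CMA1, MS4A2, FCER1A, FCER1G, HPGDS and SRGN, ran from 12.70 in T114 through 14.48 to 15.31 in T6. Here 19.1% of all probes were called, and 6 of the 32 kinesins were, so the family was called about as often as probes in general. Of these 6, 1 was mitotic and 4 were transport motors. KIF23 (0.37 ± 0.09, adjusted p = 0.00141), KIF3A (0.23 ± 0.05) and the light chain KLC4 (0.13 ± 0.03) rose with the index. KIF5C (−0.62 ± 0.11, adjusted p = 1.41e-05), KIF1C (−0.42 ± 0.08) and KIF5B (−0.19 ± 0.04) were lower at a higher index. KIF11 had −0.39 ± 0.20 (adjusted p = 0.132).

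KIF5C kept this direction with all 3 of its probes, at −0.62, −0.66 and −0.56, each of them called, although the dimmer probes were well above background on only 37 and 9 of 51 arrays. Its r with the mast cell index was −0.628 and rho −0.564, and without T114 and T77, the tumors with the lowest index, r was −0.560. Within scan sessions the r of KIF5C ran from −0.945 to 0.730. The tumor with most KIF5C, T114, was also the one with the lowest mast cell index. When the other 4 indices were added as covariates, KIF5C was the only kinesin called with the mast cell index (−0.57 ± 0.14, adjusted p = 0.00344, with 5.97% of all probes called). The nerve and Schwann cell index called no kinesin and 1.08% of probes, and KIF5C had 0.39 ± 0.13 there (adjusted p = 0.0546).

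With the fibroblast and matrix index 5.88% of probes were called. KIF3A was the only kinesin called, lower by −0.22 ± 0.05 (adjusted p = 0.0049). This call was lost with slide or scan session as a fixed factor.

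The light chain KLC3 went with the epidermal genes, a contrast added after the data had been seen. KLC3, a light chain best known from sperm tails, ran from 1.69 in LM0 through 8.06 to 11.74 in T47 and was above background in 36 of 51 tumors. The epidermis index, the mean of KRT5, KRT1, KRT10, DSP, DSG1, DSG3, SFN and PERP, split the tumors into 25 with values of 2.72 to 8.59 and 26 with values of 11.54 to 15.18, with a gap of 2.95 between them. In the 25 lower tumors KLC3 ranged from 1.69 to 7.79 (10 above background), and in the 26 higher ones from 8.06 to 11.74 (all above background). Fitted over all tumors, KLC3 rose by 3.21 ± 0.11 log2 per SD of the index (adjusted p = 5.29e-31), and 12.2% of all probes were called.

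Since the tumors fell into 2 clusters, the relation was also taken within each. In the 26 higher tumors KLC3 had r = 0.806 and rho = 0.863, with a permutation p of 1e-05, the smallest these permutations can give. In the 25 lower tumors r was 0.802 and rho 0.667, and r fell to 0.678 without the 2 tumors farthest from the median of the index, but 15 of these 25 values were not well above background, so their order is uncertain. It was called by limma in both clusters, where 0.3% and 2.9% of all probes were. KIF1C had r = 0.868 in the higher tumors (permutation p = 1e-05) and 0.113 in the lower ones (permutation p = 0.592), where rho was 0.313 and r without the 2 farthest tumors 0.320. The difference between the clusters was not tested. Its median was 12.86 in the higher and 11.73 in the lower tumors, with overlapping ranges. Its second, dimmer probe was called over all tumors as well (0.30 ± 0.08, adjusted p = 0.00529).

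Other kinesins called with the epidermis index over all tumors were KIF5B (0.18 ± 0.04), KIF9 (0.25 ± 0.06) and KIF1B (0.46 ± 0.13), which were higher, and KIF3A (−0.22 ± 0.05) and KIF5A (−0.22 ± 0.05), which were lower. None of these 5 was called within either cluster. The KIF1B probe was well above background in 23 of the 25 lower and in all 26 higher tumors. In the 26 higher tumors KIF5B had a slope of 0.17 ± 0.05 per SD of the index in that cluster (adjusted p = 0.0304, r = 0.598), KIF9 0.26 ± 0.07 (adjusted p = 0.0302, r = 0.583) and KIF1B 0.23 ± 0.07 (adjusted p = 0.0523, r = 0.542). In the 25 lower tumors KIF5B had −0.05 ± 0.06 and KIF9 0.04 ± 0.08. No mitotic kinesin of 11 was called, and KIF11 had 0.30 ± 0.20 (adjusted p = 0.28). The epidermis and mast cell indices had r = −0.372 with each other over the tumors. With the other 4 indices as covariates KLC3 (3.24 ± 0.11), KIF1C (0.50 ± 0.06), KIF5B, KIF9 and KIF3A were still called with the epidermis index, beside 7.68% of all probes, whereas KIF1C and KIF5B were no longer called with the mast cell index.

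The replication contrast was also taken on either side of the epidermal gap. In the 25 lower tumors 8 kinesins were called with the DNA replication index and in the 26 higher tumors 7, all of them mitotic, beside 2.63% and 1.19% of all probes. The 7 genes called in both were KIF11, KIF15, KIF18A, KIF20A, KIF2C, KIF4A and KIFC1. The KIF20A probe was well above background in only 3 of the 25 lower and 3 of the 26 higher tumors.

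**Figure D4:**
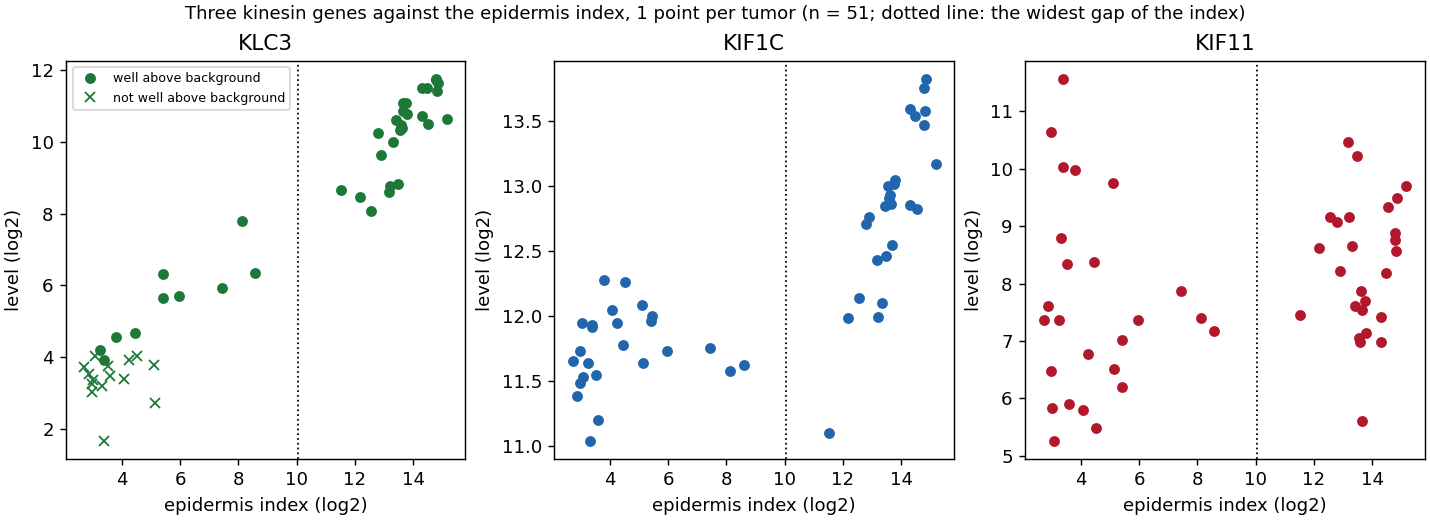
Level (log2) of KLC3, KIF1C and KIF11 against the epidermis index (log2), 1 point per tumor, with crosses for arrays on which the probe was not well above background and a dotted line in the widest gap of the index. KLC3 rises on both sides of the line, although most values on the left are crosses, KIF1C has r = 0.868 on the right and 0.113 on the left, and KIF11 has high and low tumors on both sides.

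Between male and female dogs no kinesin was called, and 0.0573% of all probes were. The lowest adjusted p of a kinesin was 0.791. Without adjustment, 7 of the 32 kinesins had a p under 0.05, all 7 mitotic and all higher in males. By the same measure 6.22% of all probes differed, and 4.31% were higher in males. KIF11 had a mean of 8.54 ± 1.58 (SD, n = 19) in males and 7.55 ± 1.30 (SD, n = 30) in females, a difference of 0.98 with a 95% interval from 0.19 to 1.78. KIF4A differed by 0.77 (0.25 to 1.29), KIF2C by 0.51 (0.16 to 0.86) and KIFC1 by 0.65 (0.11 to 1.18), and the levels of the sexes overlapped in all of these. KIF20A, KIF18A and KIF15 were the other 3.

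No transport kinesin had an unadjusted p under 0.05 between the sexes, and KIF5B had the same mean of 12.04 in both. The DNA replication index itself was higher in males, 9.43 ± 0.61 (SD, n = 19) against 8.99 ± 0.36 (SD, n = 30), with p = 0.00271 by a two-sided permutation test. With that index as a covariate no kinesin had an unadjusted p under 0.05 for sex, the lowest being 0.0886. KIFC1, KIF4A and KIF11 had r of 0.921, 0.871 and 0.856 with the index, so this fit cannot separate sex from the index. Neither the test of the index between the sexes nor this fit was among the planned comparisons. Markers of other tissues also differed in level between the sexes without a call. The skeletal muscle genes had higher means in males in 9 of 10 cases (median difference 0.71, 4 with an unadjusted p under 0.05), and all 8 epidermal genes had lower ones (median −1.35, none with an unadjusted p under 0.05). Their part in the sex difference of the kinesins was not tested. For no kinesin did the difference in slope on the index between the sexes pass adjustment (lowest adjusted p = 0.697). KIF4A lies on the X chromosome by the coordinates in the scanner output, the other 6 on autosomes.

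**Figure D5:**
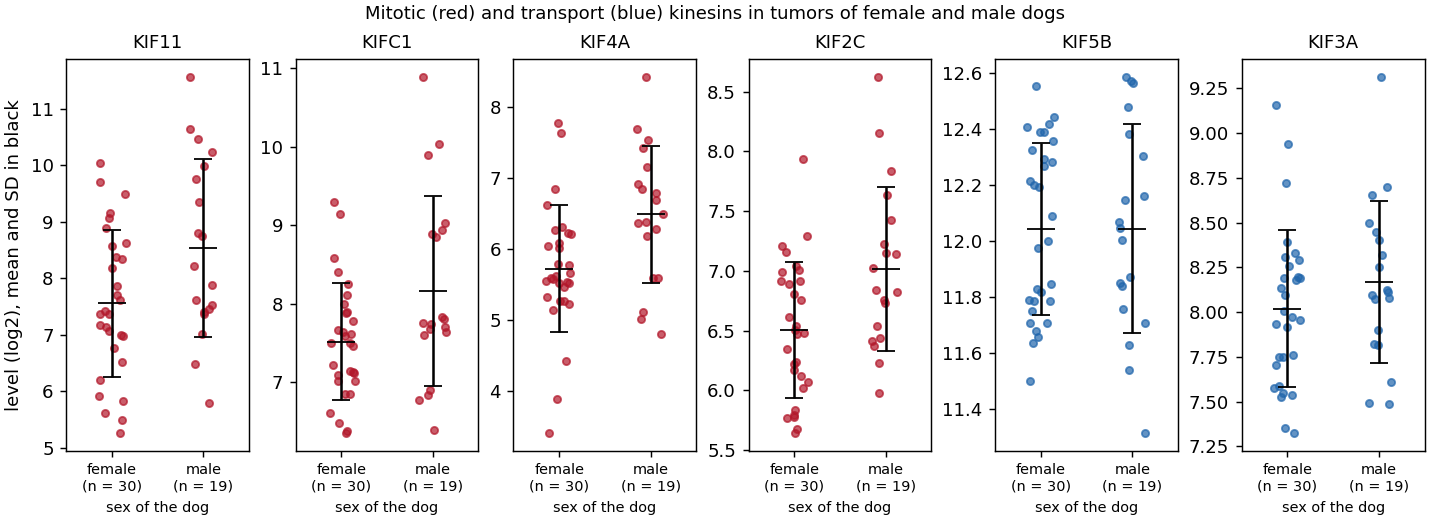
Levels (log2) of 4 mitotic kinesins (red) and 2 transport kinesins (blue) in tumors of 30 female and 19 male dogs, with the mean and SD in black. The means of KIF11, KIFC1, KIF4A and KIF2C are higher in males with wide overlap, and those of KIF5B are equal.

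Breed and age gave no call among the kinesins. Between Boxers, Labrador Retrievers and crossbreds 0.0573%, 0.0115% and 0.0161% of probes were called in the 3 contrasts (Boxer against Labrador, Boxer against crossbred, Labrador against crossbred), and no kinesin had even an unadjusted p under 0.05. The Boxer mean of KIF11 exceeded the crossbred mean by 0.32, with a 95% interval from −0.85 to 1.48. That interval is wide enough to hold a Boxer mean a full log2 unit higher. KIF5B was better bounded, at 0.09 with an interval from −0.18 to 0.36. With age, over 49 dogs, 0% of probes were called, and no kinesin had an unadjusted p under 0.05. KIF11 had a slope of 0.10 log2 per year (−0.05 to 0.25).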

How the data were processed

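The authors hybridized amplified, Cy3-labeled RNA and deposited, per array, the scanner output of Feature Extraction 9.5.1.1, in which the processed signal is a background-subtracted intensity on a linear scale. They also deposited a quantile-normalized signal table, used here as an alternative after log2. In the analysis, outlier-flagged spots (2 to 35 per array) were set missing, and log2 intensities of non-control spots were quantile-normalized with limma 3.58.1 (R 4.3.3). Spots of a probe were averaged. Models were fitted by lmFit and eBayes over all 43603 probes and adjusted by Benjamini-Hochberg. Groups came from the labels. Tumors are named by case, and sex, breed and age are those stated. An index is the mean log2 level of a list's measured genes, and slopes are per SD of it. Of 2297 locus names, 1514 were updated through RefSeq gene identifiers. The 15 slides and 9 scan sessions were tried as blocks. The fitting code was checked on simulated data. The members and lists were chosen with earlier results of these data known. All mitotic and transport kinesins above background on at least 26 arrays are named with 3 values. The number of arrays limits the precision.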

Additional observations from a re-analysis of the deposited data

Results flagged for a closer look

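In the breed groups of 9 dogs, 4 kinesin values stood apart from the rest of their group by Dixon's test, out of 64 groups of values tested, a test by which chance marks about 1 group in 20. KIF5C was 10.76 in the Boxer tumor T114, whose nearest neighbour was 7.54, and T114 had the lowest mast cell index of all 51 tumors. KIF1B was 1.95 in the Boxer tumor T12 (nearest 5.99), and it was well above background in 8 of the 9 Boxer tumors. KIF3C was 3.25 in the Boxer tumor T47 (nearest 5.29), and KIFC2 was 3.90 in the Labrador Retriever tumor T58 (nearest 4.99), each in a group with 7 tumors well above background for that gene.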

How the results depend on the processing

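With the DNA replication index, 6 to 12 kinesins were called under the alternatives against 9, at least 6 of them mitotic and none a transport kinesin, whether a gene was taken by its brightest probe or by the mean of its probes, although single dimmer probes of KIF5B and KIF3A were called. KIF20B and KIF22 lost their calls without T9 and LM0, with the skeletal muscle mean as a covariate, within either sex and above the gap of the epidermis index, KIF22 also below it, and KIF20B also with other indices as covariates, with the authors' table and with spots not found set missing. With the filter on dim probes KIF20A dropped out, with females or males only 6 genes each were called, and KIF2A was added by several settings. KIF26B, also outside the mitotic list, was called with the other 4 indices as covariates (0.31 ± 0.08, limma adjusted p = 0.004), beside 8.5% of all probes. With the mast cell index the count of 6 became 10 at an adjusted p under 0.05, 1 with the other 4 indices as covariates, and 0 and 3 in the tumors below and above the epidermal gap. With the fibroblast and matrix index the count of 1 became 4 at an adjusted p under 0.05, 2 with the filter on dim probes, with normexp and with the other 4 indices as covariates, and 0 with slide or scan session as a fixed factor, with the authors' table, with spots not found set missing and in the tumors above the gap. With the epidermis index the count of 7 became 3 with slide or scan session as a fixed factor (KLC3, KIF1C and KIF5B), 1 below the gap and 2 above it. With the nerve and Schwann cell index the count of 0 became 2 at an adjusted p under 0.05 and 2 with normexp. The slope of KIF5B on the epidermis index turned to −0.0501 below the gap. The causes were not tested, and the subsets also held fewer tumors. The share of all probes called moved as well. With the other 4 indices as covariates it went from 19.1% to 5.97% for the mast cell index. For the fibroblast and matrix index it went from 5.88% to 4.11%. For the epidermis index it was 12.2% over all tumors, 0.3% below the gap and 2.9% above it. The other counts for these indices stand without that share and do not set kinesins apart from probes in general. Counts for sex, breed and age stayed at 0 in all settings, and the median correlations between kinesins moved by less than the spread between pairs. MKI67 alone in place of the index was not run, since no probe bears that name. The covariate (other than mast cell with fibroblast, age and sex), cluster, epidermis, nerve and not-found settings were added after the data had been seen. No paired analysis applied, since each array held the tumor of a different dog. Genes near background on many arrays, such as KIF20A, KIF2B and KIF19, were limited by signal.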

Other observations

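Some probes described as kinesins lie outside the naming rule. Of these, 2 probes annotated only as an expressed sequence similar to human KIF20A, the motor that carries the chromosomal passenger complex to the midzone, were well above background on 49 and 42 arrays, against 6 for the probe named KIF20A. Their slopes on the DNA replication index were 1.04 ± 0.09 and 1.34 ± 0.13 log2 per SD, both called (adjusted p = 3.56e-13 and 4.88e-11), and their r with KIF11 was 0.931 and 0.937. With the probe named KIF20A their r was lower, 0.839 and 0.763. The probe that RefSeq identifiers assign to KIF7, a kinesin of the Hedgehog pathway in cilia, was above background on all 51 arrays and was not called (−0.10 ± 0.07). Probes described as similar to KIF1B and KIFC2, also above background on all 51 arrays, were not called either (−0.03 ± 0.08 and 0.02 ± 0.05). These probes were chosen after their values were seen.

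Probes of one gene did not always move together. KIF22 and KIF5C had r = 0.985 and 0.902 between their brightest and next probes, KIF3B had 0.011, and the dimmest of 4 KLC1 probes, with r = 0.306 to the brightest, was called with the mast cell index (−0.32 ± 0.05) where the others were not.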
